A study of Homo sapiens with 8 samples.

Results

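Pbx4-only sites inside protein-coding genes were the peaks of overexpressed Pbx4 in PC-3 cells that met no HoxC5 peak and whose summit lay within a gene but away from its promoters. PC-3 cells are a long-established line grown from a human prostate cancer. The members were selected on the readout itself. A Pbx4 peak on chromosomes 1 to 22 or X had to be narrower than 1000 bp and to overlap no peak of the 3 HoxC5 lists by even 1 bp. Its summit, the point of highest signal, had to lie inside a protein-coding gene and over 1 kb from every transcriptional start site (TSS) of a protein-coding transcript. Of the 153620 peaks in the Pbx4 list, 153551 lay on these chromosomes, 151032 of them were narrow enough, 108978 of those were free of HoxC5, and 56615 had a summit in a gene. The distance from TSSs left 53022 sites, or 34.5% of the list, of which 50212 were intronic and 2810 had the summit in an exon.

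Pbx4 was measured in 1 ChIP library, from PC-3 cells that overexpressed Pbx4 from a lentiviral vector, with an antibody against Pbx4. HoxC5 was measured with an antibody against HoxC5 in 2 libraries of PC-3 cells labelled endogenous, replicates 1 and 2, and in 1 library of PC-3 cells overexpressing HoxC5. Input DNA was sequenced in 4 further libraries, which are not used here. These sites are therefore those of a protein above its natural level in a single library, with no replicate check. The lists of the endogenous HoxC5 libraries held 2525 and 170 peaks and that of overexpressed HoxC5 67196, so the last of these set nearly all of the HoxC5 overlap. The study's methods give an average depth for its libraries, but the lists hold no read total of any one library, and a missing HoxC5 peak does not show that HoxC5 was absent.

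Pbx4 belongs to the TALE homeodomain proteins, which bind DNA together with Hox proteins and with the related Meis proteins. Many binding sites of such factors lie in introns, where enhancers are common, and at enhancers the factors share short stretches of DNA with partners such as AP-1, the dimer of Fos and Jun proteins, and TEAD, the DNA-binding partner of the Hippo pathway coactivators YAP and TAZ. Transcription factors recognise short words in DNA, so the words under the summits show which sequences these sites have in common.

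The sequences from 50 bases before to 50 bases after the summit are given for 6 sites, to show the words found more often at summits than beside them. They were read from the plus strand of GRCh37 (hg19), and capitals mark each such word. The first 3 are among the intronic sites of highest fold enrichment, the next 2 are the intronic sites of lowest q-value that hold the Pbx-Meis word and the TEAD word, and the last is the exonic site of highest fold enrichment.
PLA2G4E intron, TEAD and AP-1 words (chr15:42302799-42302899): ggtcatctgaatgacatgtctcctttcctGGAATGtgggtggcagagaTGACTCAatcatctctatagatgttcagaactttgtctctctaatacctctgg
HIVEP3 intron, Meis and forkhead words side by side (chr1:42131155-42131255): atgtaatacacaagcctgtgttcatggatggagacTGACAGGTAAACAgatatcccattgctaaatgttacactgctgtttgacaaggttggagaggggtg
PDZD2 intron, AP-1 word (chr5:31811470-31811570): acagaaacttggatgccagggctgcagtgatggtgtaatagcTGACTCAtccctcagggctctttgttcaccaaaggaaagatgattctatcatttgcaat
ASB4 intron, Pbx-Meis and AP-1 words (chr7:95121471-95121571): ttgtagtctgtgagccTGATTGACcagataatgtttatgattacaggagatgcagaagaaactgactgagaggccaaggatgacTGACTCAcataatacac
SRSF5 intron, TEAD and Meis words (chr14:70207911-70208011): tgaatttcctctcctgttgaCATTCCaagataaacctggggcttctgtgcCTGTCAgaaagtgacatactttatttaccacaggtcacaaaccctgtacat
UBR3 coding exon, NFI word (chr2:170929972-170930072): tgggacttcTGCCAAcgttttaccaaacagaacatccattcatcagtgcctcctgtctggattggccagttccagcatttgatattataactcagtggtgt

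The site of highest fold enrichment lay in intron 24 of 35 of AHCTF1, the gene of a nucleoporin, with 30.9-fold enrichment over the local background and its summit 55.7 kb from the nearest TSS. The PLA2G4E site lay in intron 2 of 19 at 25.04-fold, the HIVEP3 site in intron 2 of 8 at 24.8-fold, and the PDZD2 site in intron 2 of 24 at 24.6-fold. The ASB4 site had 13.6-fold enrichment in intron 1 of 4, and the SRSF5 site had 16.4-fold enrichment inside the gene but outside the introns of its canonical transcript, the one transcript per gene that the annotation marks as representative. The other 6 of the 10 intronic sites of highest fold lay in ENSG00000287694, ADGRB1, IGSF3, AFAP1L2, WDR7 and CA12, at 24.5- to 26.8-fold. The summit of the UBR3 site, in the gene of a ubiquitin ligase, fell in a coding exon with 24.4-fold enrichment, and that of LYSMD3 in another at 24.1-fold. The next exonic sites by fold had their summits in the 3′ UTRs of ZFAND5 (21.1-fold), OGDHL (20.3-fold) and GATAD2B, the gene of a NuRD complex subunit (19.8-fold).

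Most members were far weaker than these. The median fold enrichment was 5.84 (interquartile range 4.63 to 7.85, range 2.04 to 30.9), the median width 276 bp and the median −log10 q 7.97. A fold of at least 10 was reached by 6085 members (11.5%). Since HoxC5 overlap, width and position chose the members, the values of the other classes are given as a description. The 18878 gene-body Pbx4 sites that overlapped HoxC5, under the same width and TSS rules, had a median fold of 8.50 and a median width of 410 bp, and 36.6% of them reached a fold of 10. The 51319 Pbx4-only sites outside protein-coding genes resembled the members, with a median fold of 5.99 and a median width of 279 bp.

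At the edges of the rule, the 104 members at most 50 bp under the width limit had a median fold of 10.03, and the 68 peaks less than 50 bp over it, left out for width, had 9.44. The 385 members with the summit up to 100 bp beyond the 1 kb limit from a TSS had a median fold of 5.29, against 5.19 for the 354 peaks up to 100 bp inside it. The 166 members within 100 bp of a HoxC5 peak had a median fold of 5.08, against 5.06 for the 506 sites that overlapped one by 1 to 100 bp. A HoxC5 peak lay within 10 kb of 27424 members (51.7%), and the median gap was 9.32 kb. Of the Pbx4-only sites outside protein-coding genes, 47.9% had one as near, with a median gap of 10.95 kb.

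The label of the cell line could not be checked firmly from these lists. CTNNA1, the α-catenin gene, known to be partly deleted in PC-3, had 17 Pbx4 peaks, 15 of them members, and none in its last 174 kb (chr5:138097006-138270723). Longer stretches without a peak occurred in other genes, so this blank does not identify a deletion.

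The members lay in exons about as often as exonic sequence would give. The exonic share was 5.30% (95% Clopper-Pearson interval 5.11 to 5.49%), while exons made up 5.45% of the gene sequence over 1 kb from a TSS (67.8 of 1244 Mb). This corresponds to 41.4 sites per Mb of exon and 42.7 per Mb of intron, a ratio of 0.970. Intervals here and below cover counting error only. Of the exonic members, 1051 had the summit in coding sequence (36.8 per Mb), 1672 in a 3′ UTR (43.8 per Mb) and 87 in a 5′ UTR (75.8 per Mb). Among the HoxC5-overlapping sites the exonic share was 5.14% (4.83 to 5.47%). The share depends on the definition of an exonic site, and was 8.17% when any base of the peak in an exon was enough.

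First introns were denser in members than later ones. In the first introns of canonical transcripts there were 13702 members, or 56.1 per Mb, against 30015 and 38.1 per Mb in their other introns. The remaining 6495 intronic members (12.9%) lay in introns of other transcripts only. The first-intron share was 27.3% of the intronic members (95% interval 26.9 to 27.7%) and 25.9% of the intronic HoxC5-overlapping sites (25.2 to 26.5%), a difference of 1.43 percentage points (two-sided Fisher's exact test over sites, exact adjusted p = 0.000216). That difference changed sign, to −0.797 points (exact adjusted p = 0.0261), when Pbx4 peaks within 1 kb of a HoxC5 peak were counted as shared, and at over 5 kb from a TSS it was 0.753 points (exact adjusted p = 0.0608). Members were less often close to the start of a long non-coding RNA. The summit lay within 1 kb of such a TSS in 768 members (1.45%) and in 406 HoxC5-overlapping sites (2.15%), a difference of −0.702 percentage points (exact adjusted p = 4.57e-10). With HoxC5 overlap defined by the endogenous lists alone, this difference was −0.890 points (exact adjusted p = 0.0729).

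Along genes of at least 20 kb, the members thinned out from the 5′ to the 3′ end. With each gene cut into 10 equal stretches, the first held 12.2% of the 48248 members that lay in 1 such gene only, although 8.97% of the eligible bases were there. The last held 8.63% of the members and 10.2% of the bases, and the share fell at each step between. The HoxC5-overlapping sites went from 11.4% to 9.08%.

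**Figure D1:**
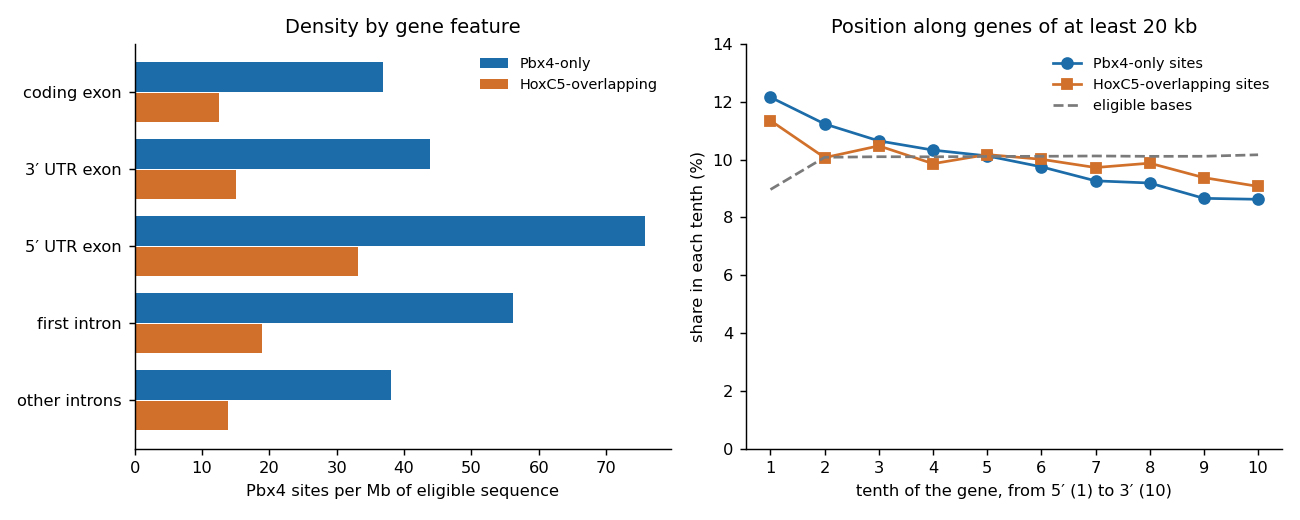
Left, bars give Pbx4 sites per Mb of sequence over 1 kb from a protein-coding TSS, for Pbx4-only and HoxC5-overlapping sites in each gene feature, with introns those of canonical transcripts. Right, lines give the share (%) of sites and of eligible bases in 10 equal stretches of genes of at least 20 kb, where Pbx4-only sites go from 12.2% in the first to 8.63% in the last.

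The intronic summits were marked above all by AP-1. For 20 fixed words, searched on both strands within 50 bp of the summit, the share of summit windows was compared with that of windows 1 kb to the right. The test was McNemar's, exact and two-sided, with p-values adjusted by the Benjamini-Hochberg method. No word lies whole within another, although the NF-Y word begins on its other strand like the Hox-Pbx and Pbx-Meis words. Of the 20 words, 11 were more frequent at the summits of the 50210 intronic members with complete windows (55% of the words tested), 3 were less frequent and 6 did not pass the test. The AP-1 word TGACTCA was in 16.1% of the summit windows and in 1.76% of the flanks (8101 against 885 windows, exact adjusted p = 1e-300, the smallest value written). The TEAD word GGAATG followed, with 10.97% against 5.47% (exact adjusted p = 1.11e-222). Meis proteins bind TGACAG, which was found in 10.5% of the summit windows and 6.43% of the flanks (exact adjusted p = 2.38e-119).

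Other families of factors were also represented at the intronic summits. The NFI word TTGGCA was in 9.18% against 5.14% (exact adjusted p = 4.27e-136), and the word TGTTTAC of forkhead proteins, many of which can open closed chromatin, was in 3.87% against 1.47% (exact adjusted p = 1.49e-126). The RUNX word TGTGGTT was in 3.49% against 1.83% and the GATA word AGATAAG in 1.98% against 1.404%. The C/EBP word TTGCGCAA was rare but was in 32 summit windows and 3 flanks (exact adjusted p = 6.96e-07). The NF-Y word CCAATCA was in 1.15% against 0.976% (exact adjusted p = 0.0115), but with 1 site per gene the difference fell from 0.173 to 0.0425 points (exact adjusted p = 0.885). With 1 site per gene the C/EBP call was lost too (exact adjusted p = 0.0651).

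The words of Pbx with its partners were rare and differed from each other. The Pbx-Meis word TGATTGAC was in 216 summit windows (0.430%) and 89 flanks (0.177%, exact adjusted p = 4.03e-13). Of the words for Hox with Pbx, TGATTAAT was in 0.609% of the summits and 0.446% of the flanks (exact adjusted p = 0.000636, or 0.0689 with 1 site per gene), while TGATTGAT was in 0.370% and 0.396% (exact adjusted p = 0.566). The word TAATTA, which homeodomains of the Hox type bind without a partner, was less frequent at the summits, with 2.09% against 4.16% (exact adjusted p = 3.40e-81). The word of Sp and KLF proteins (GGGCGG, 0.737% against 1.64%) and the CTCF word, which is only a part of the CTCF motif (AGGGGGC, 0.223% against 0.827%), were also less frequent there. The part of repeats and base composition in these lower words was not tested. The words of CRE, ETS, ZEB/SNAI and MYC/MAX proteins and of the glucocorticoid receptor did not pass the test.

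The exonic summits showed the same leading words. Of the 20 words, 6 were more frequent than in the flank (30%), 3 were less frequent and 11 did not pass the test. AP-1 was in 14.8% of the exonic summit windows against 1.89% of the flanks (exact adjusted p = 7.67e-71). TEAD was in 11.99% against 5.09% (exact adjusted p = 6.55e-20), Meis in 10.8% against 6.48% and the NFI word in 9.79% against 5.62% (each exact adjusted p = 3.49e-08). Forkhead (3.02% against 1.67%) and RUNX (3.63% against 1.85%) were higher too, and Hox, Sp/KLF and CTCF words were lower. These 9 words had the same direction at intronic summits. The exonic CTCF difference of −1.25 points was −0.391 with the flank 1 kb to the left (exact adjusted p = 0.093), and that of Sp/KLF, −1.21 points, was −0.614 with the endogenous HoxC5 lists alone (exact adjusted p = 0.0655). Compared directly with the intronic summits by a two-sided Fisher's exact test, 1 of the 20 words differed (5%). This was CAGGTG, the E-box word of ZEB and SNAI repressors, in 10.2% of exonic and 8.37% of intronic summit windows (exact adjusted p = 0.0211), and it was not called with windows of 25 or 100 bp on either side. The AP-1 difference, exonic minus intronic, was −1.33 points with a 95% Newcombe interval of −2.64 to 0.0684.

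**Figure D2:**
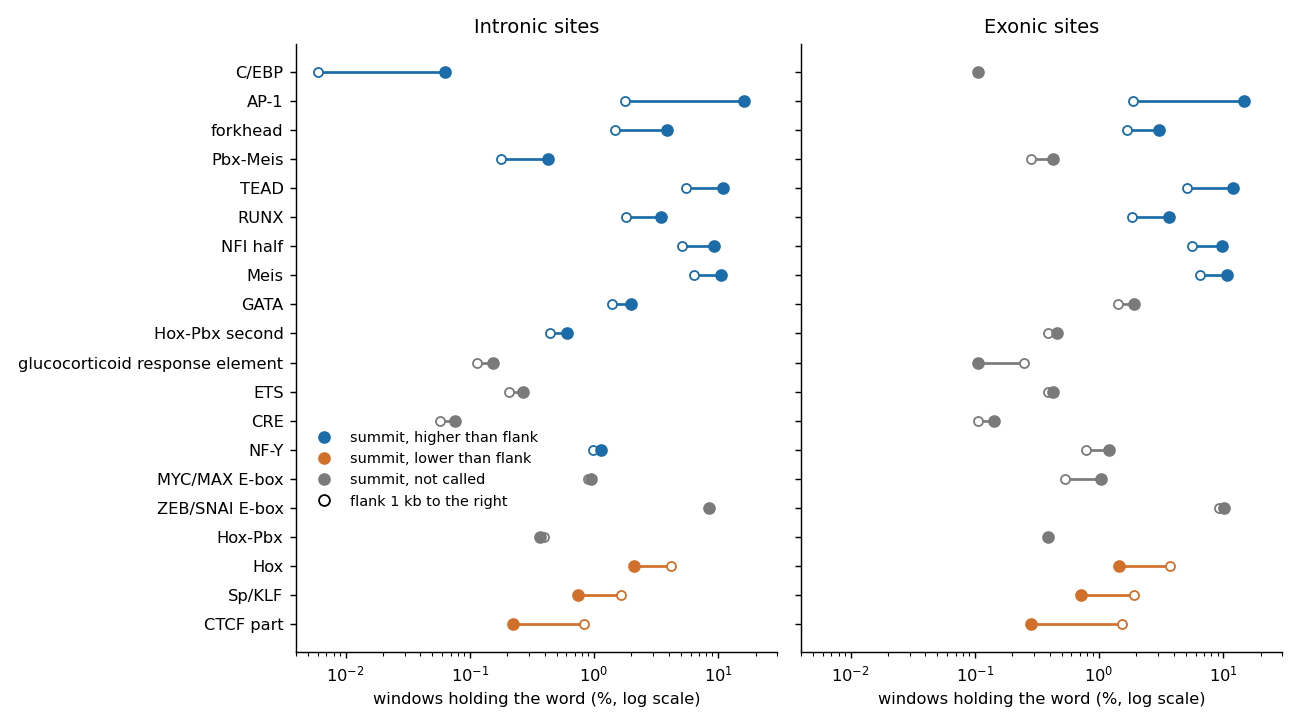
Points give the share of windows, 50 bp to either side of their centre, that hold each of the 20 words (%, log scale), filled at summits and open in the flank 1 kb to the right, for intronic members at left and exonic members at right. AP-1 stands out, at 16.1% of intronic summits against 1.76% of flanks, and a word with no window has no point.

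In a search over all 8-letter words, those with the AP-1 word were the strongest of the higher ones. The search used the same windows and flanks as the fixed words, so it is not independent of them. Of the 27401 words found in at least 20 intronic windows, 5980 were more frequent at summits (21.8%) and 4613 were less frequent (16.8%). Only 73 of the 5980 higher words held at least 6 letters in a row of the AP-1 word. The 6 higher words among the 15 of lowest p all held the AP-1 word with 1 further letter. ATGACTCA was in 2941 summit windows against 205 flanks, GTGACTCA in 2539 against 226, and CTGACTCA in 1841 against 266. Words that depart from the AP-1 word by a letter were higher as well, such as ATGATTCA, in 1436 windows against 254, and ATGACTAA, in 1212 against 180. TTGCACAA, which departs by a letter from the rare C/EBP word TTGCGCAA, was in 715 summit windows against 139 flanks. The other 9 of the 15 words were less frequent at summits. They were runs of A and T such as AAAAAAAA (961 against 3394 windows) and AAAAATTA (414 against 2408), and words such as GCCTCCCA (555 against 2263) and CCCAGCTA (322 against 1698), which are parts of the Alu repeat. Median GC content was 41.6% at the summits of all members and 40.6% in the flanks, but its standard deviation was 6.44 points at summits and 10.4 in flanks. At the HoxC5-overlapping summits the median was 43.6%. The part of repeats and base composition in the lower words was not tested.

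The AP-1 word was spread over the middle of the sites rather than held at the summit. In bins of 10 bp, it was centred in 1.82% of the intronic sites at the summit itself, in 1.77% and 1.78% at 20 bp to either side, and in 0.607% and 0.743% at 90 bp. Within 50 bp, the nearest AP-1 word lay a median of 24 bp from the intronic summit. The Hox word had the opposite shape, with 0.191% at the summit and 0.343% and 0.325% at 90 bp.

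**Figure D3:**
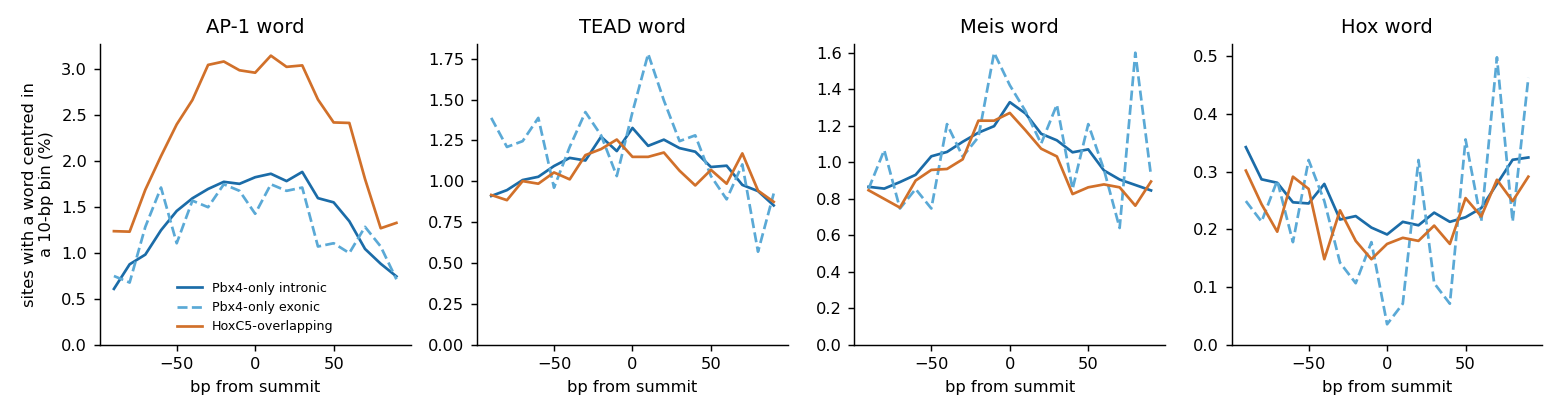
Lines give the share of sites (%) with a word centred in each 10-bp bin, by distance in bp from the Pbx4 summit, for 4 words and for intronic, exonic and HoxC5-overlapping sites. The AP-1 word rises over the middle of the sites, to 1.82% at intronic and 2.96% at HoxC5-overlapping summits, and the Hox word dips there.

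Most members held none of the AP-1, TEAD, Meis and Pbx-Meis words. Other words that were higher at summits, such as NFI, forkhead and RUNX, were left out of this count. Of the 53022 sites, 35028 (66.1%) had no AP-1, TEAD, Meis or Pbx-Meis word within 50 bp of the summit, and 13.2% of the flank windows of all members had at least 1 of these words. AP-1 and a Meis or Pbx-Meis word met in 763 members (1.44%), and AP-1 and TEAD in 715 (1.35%). The TEAD word was in 8.39% of the members with AP-1 and in 11.5% of those without. The words moved with the strength of the site, given here as a description because fold is a measure of the same library. From the decile of members with the lowest fold to that with the highest, the AP-1 share went from 11.1% to 19.6%, TEAD from 9.75% to 13.3% and Meis from 9.15% to 11.8%, while the Hox word went from 2.47% to 1.43%.

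Sites that overlapped HoxC5 differed from the members in their words. Of the 20 words, 14 differed between member summits and the summits of the HoxC5-overlapping gene-body sites (70%; two-sided Fisher's exact test with Benjamini-Hochberg adjustment), 5 higher in the members and 9 lower. The largest difference was in AP-1, which was in 16.1% of the members and 26.4% of the HoxC5-overlapping sites, a difference of −10.3 points (exact adjusted p = 1.27e-200). The words of Hox with Pbx were also less frequent in the members, with 0.372% against 0.641% for TGATTGAT (exact adjusted p = 9.52e-06) and 0.602% against 0.985% for TGATTAAT (exact adjusted p = 6.51e-07). Sp/KLF (0.736% against 1.65%), RUNX (3.50% against 4.61%), CTCF, forkhead, ETS and NFI words were lower in the members as well. The words higher in the members were CAGGTG (8.47% against 6.89%, exact adjusted p = 3.02e-11), TEAD (11.02% against 10.2%, exact adjusted p = 0.00233), Meis (10.5% against 9.89%, exact adjusted p = 0.0248), GATA (1.98% against 1.46%) and Hox (2.05% against 1.77%).

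Few of these differences held in every alternative. AP-1 and Sp/KLF kept their direction and their call in each alternative planned for this comparison. Meis lost its call with HoxC5 within 1 kb counted as shared (0.123 points, exact adjusted p = 0.616), and also with a required overlap of 50%, with windows of 25 bp and with 1 site per gene (exact adjusted p from 0.125 to 0.806). The Hox word lost its call at a fold of at least 5 (0.106 points, exact adjusted p = 0.455) and stood at −0.0615 points with 1 site per gene (exact adjusted p = 0.838). TEAD lost its call with windows of 25 bp (exact adjusted p = 0.132). RUNX, ETS, forkhead, NFI and TGATTAAT were among the words that lost theirs with 1 site per gene (exact adjusted p from 0.062 to 0.538 for these). With the endogenous HoxC5 lists alone, which left 716 HoxC5-overlapping sites, TGATTAAT stood at 0.427 points (exact adjusted p = 0.463), and CAGGTG turned to −6.26 points (exact adjusted p = 4.76e-07). With these lists TGATTGAT, CTCF, GATA, TEAD, Meis and Hox were not called either.

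Because the members were weaker as a group, the comparison was repeated within quintiles of fold enrichment. AP-1 was lower in the members in each quintile, from 11.8% against 18.8% in the weakest to 19.7% against 28.3% in the strongest (exact adjusted p from 3.92e-33 to 1.64e-15). Meis was called in the middle 3 quintiles. It missed the threshold in the weakest (9.48% against 8.18%, exact adjusted p = 0.177) and in the strongest (11.5% against 11.6%, exact adjusted p = 0.835). Sp/KLF was lower in the members in the weakest quintile (0.830% against 3.65%, exact adjusted p = 6.95e-18), but in the strongest the shares were 0.665% and 0.723% (exact adjusted p = 0.726). CAGGTG was in 8.01% of the members and 8.29% of the HoxC5-overlapping sites in the weakest quintile (exact adjusted p = 0.769) and missed the threshold in the next 2 as well. The Hox, forkhead and NFI words were called in none of the 5 quintiles. The sites come from 1 library and many share a gene, so these p-values compare the sites of this library.

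**Figure D4:**
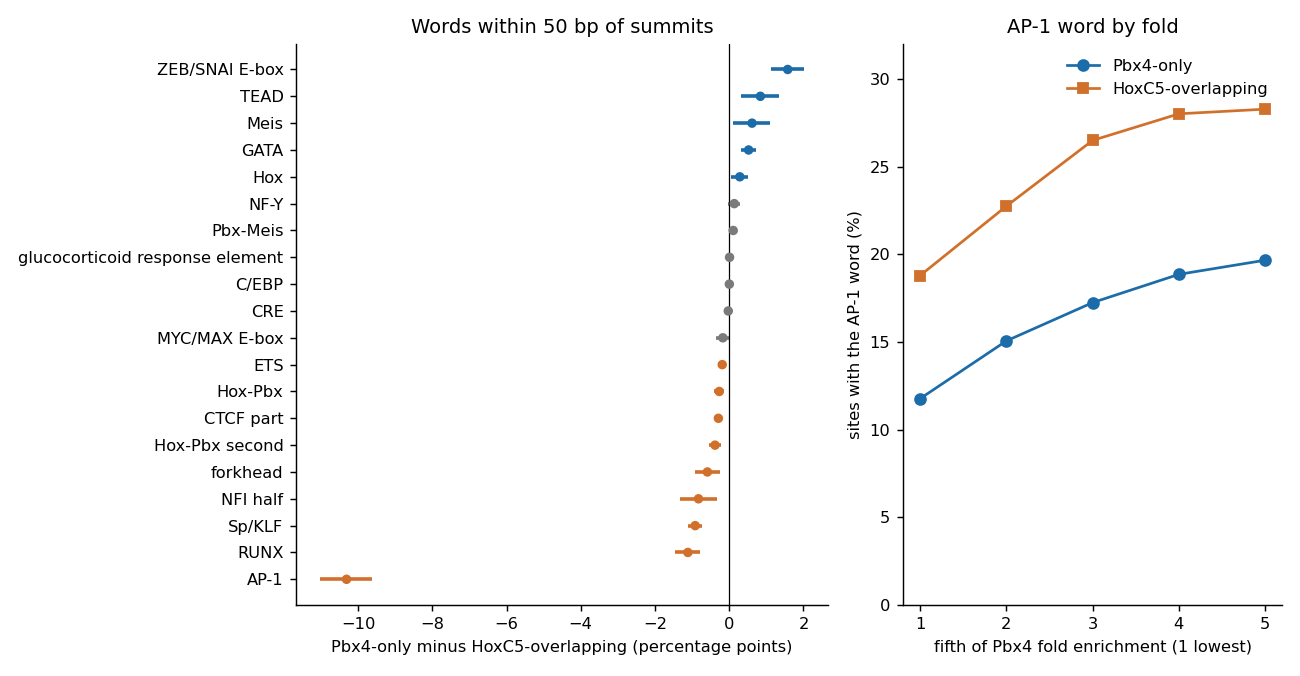
Left, points give the difference in the share of summit windows holding each word, Pbx4-only minus HoxC5-overlapping gene-body sites, in percentage points, with 95% Newcombe intervals, and AP-1 lies at −10.3. Right, lines give the share of sites with the AP-1 word (%) in each quintile of Pbx4 fold enrichment, where the members run from 11.8% to 19.7% and the HoxC5-overlapping sites from 18.8% to 28.3%.

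No word passed the test between introns and intergenic DNA. Between the intronic members and the Pbx4-only sites outside protein-coding genes, 0 of 20 words were called (0%; two-sided Fisher's exact test, adjusted), and 3 had an unadjusted p under 0.05. AP-1 was in 16.1% of intronic and 16.8% of intergenic summit windows, a difference of −0.688 points with a 95% Newcombe interval of −1.14 to −0.232 (exact adjusted p = 0.0631). For Meis the difference was 0.260 points with an interval of −0.115 to 0.635.

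At least 1 member lay in 10519 of 19544 protein-coding genes with sequence over 1 kb from a TSS (53.8%). Of these genes, 3175 had exactly 1 site, 1537 had at least 10 and 47 had at least 50. Sites accumulated in long genes. Across all genes, the number of sites and the eligible length had a Spearman correlation of 0.726, given as a description since long genes offer more sequence. The 1000 genes with most sites held 22804 members (43.0%), and 2841 members (5.36%) lay in more than 1 gene. Among the 3478 genes with at least 100 kb of eligible sequence, 3242 had a site, and the median density was 4.18 sites per 100 kb, with 0.591 and 9.17 at the 10th and 90th percentiles.

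The 10 genes with most sites were all long. MACROD2, which encodes a hydrolase of mono-ADP-ribose, had 152 sites over 2058 kb, or 7.42 per 100 kb of eligible sequence. RUNX1, the gene of the transcription factor whose word was higher at the summits, had 106 sites (8.78 per 100 kb). NPAS3, a transcription factor gene, had 97 (11.1 per 100 kb), and RAD51B, a gene of homologous recombination, had 95 (10.5 per 100 kb). KAZN, TBC1D5, PRKG1, NAV2, LPP and ANK3 followed with 91, 86, 80, 74, 72 and 67 sites. HoxC5-overlapping sites were also present in each of these genes, from 17 in NPAS3 to 62 in RUNX1.

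Some genes of moderate length were far denser. Among genes with at least 10 sites, HIF1A, the gene of the oxygen-regulated transcription factor, led with 27 sites in 49.6 kb, or 54.4 per 100 kb, of which 3 were exonic. No site in HIF1A exceeded 6.77-fold enrichment. SNAPC1, which lies next to HIF1A on chromosome 14, had 12 sites (36.4 per 100 kb). FEM1C, the gene of a ubiquitin ligase adaptor, had 10 (43.7 per 100 kb). ABHD5, NFE2L3, RND3, DTX4, IRF1, SCG5 and SLC7A8 had between 25.8 and 31.8 per 100 kb. The 20 sites of RND3, the gene of a small GTP-binding protein, reached 11.9-fold, and the 15 of IRF1, an interferon-response transcription factor, reached 11.1-fold.

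The density around HIF1A was not limited to that gene. In the stretch chr14:61900001-62300000, the successive 100-kb bins held 38, 37, 41 and 33 Pbx4 peaks of all kinds, and 22, 16, 26 and 17 members. Over the 22580 bins of the genome with a peak, the median was 6 peaks, the 99th percentile 23 and the highest 47. This stretch was chosen after the densest genes had been seen. Chromosome 14 also had the highest density of members of all chromosomes, 54.5 per Mb of eligible gene sequence, while chromosome 19 had 26.2 and chromosome X 28.7. This was not particular to the members. The HoxC5-overlapping sites were also densest on chromosome 14, with 20.4 per Mb, against 10.7 on chromosome 19 and 9.41 on chromosome X. The part of DNA copy number in these densities was not tested.

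Other long genes had no member at all. The longest were CSMD1 (2056 kb eligible), LRRC4C (1338 kb), AUTS2 (1174 kb), SGCZ (1151 kb) and PTPRT (1116 kb). Only LRRC4C among these 5 had any Pbx4 peak, with 2 that overlapped HoxC5. Of the members, 28162 (53.1%) had another member within 5 kb, with a median distance of 4.43 kb to the nearest. Over all 153551 Pbx4 peaks of these chromosomes, 67.4% had another peak within 5 kb and the median distance was 2.53 kb.

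Gene lists were compared by pooled density, which is the number of sites over the eligible length of the whole list, and all genes together had 4.28 per 100 kb. A site lay in 53.8% of all genes, but in 3242 of the 3478 genes with at least 100 kb of eligible sequence. The counts of genes with a site in each list were not adjusted for length. The focal adhesion and actin genes, which anchor cells to matrix, had 335 sites in 26 of 31 genes, or 7.97 per 100 kb. They also held 174 HoxC5-overlapping sites. The Hippo pathway genes below held 232 members and 104 such sites, and the TGF-β signalling genes 205 and 108. All genes held 56127 and 20010, with a site counted in each gene it lay in. The density of these lists is therefore not particular to the members. LPP had 72 sites, TLN2 (talin) 23, LAMA3 (laminin) 22 and PTK2 (focal adhesion kinase) 21. ITGA6, the α6 integrin gene, was the densest of this list, with 18 sites and 23.8 per 100 kb. FLNA, FLNC, ITGA5, ITGB4 and ZYX had no site, and all 5 have under 30 kb of eligible sequence.

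The Hippo pathway genes had 7.81 sites per 100 kb, with a site in 19 of 23 genes. TEAD1, which encodes a factor that binds the TEAD word, had 35 sites, FRMD6 34, the kinase gene STK3 31 and PTPN14 21. The coactivator genes YAP1 and WWTR1 (TAZ) had 15 and 16. AMOT, MOB1A, TEAD2 and TEAD4 had no site. The TGF-β signalling genes had 7.01 per 100 kb, with a site in 23 of 25. LTBP1, which encodes a latent TGF-β binding protein, had 30 sites, the receptor genes BMPR1B and TGFBR3 28 and 25, and the ligand gene TGFB2 21. SMAD3, a signal transducer, had 16, and SMAD7 and LTBP3 had no site.

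The TALE homeodomain genes had 5.52 sites per 100 kb, with a site in 9 of 11. PBX4 had 11 sites, MEIS2 10 and PBX3 10, while MEIS3 and PBX2, which have little eligible sequence, had no site. PBX4 was the densest gene of this list with 19.7 per 100 kb. Of its 11 sites, 2 had the summit in an exon. One covered chr19:19680917-19681138 with 3.41-fold enrichment, and held all of exon 4 of 8, which took up 191 of its 222 bases. The other covered chr19:19681476-19681644 with 2.50-fold enrichment, had 167 of its 169 bases in exon 3 and ended 2 bases past it. The other 9 members of the gene touched no exon of the canonical transcript. The cells carried added PBX4 coding sequence, and its part in the exonic sites of PBX4 was not tested.

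The nuclear receptor and corepressor genes had 5.09 sites per 100 kb, with a site in 20 of 24. HDAC9, a class IIa deacetylase gene, had 64 sites, the estrogen receptor gene ESR1 36, NCOA2 28 and PPARG 14. HDAC3, HDAC5 and RARA had no site. The prostate luminal genes had 4.94 per 100 kb, with a site in 9 of 16. FKBP5 had 13 sites, TMPRSS2 7, STEAP4 6 and STEAP2 5. KLK2, KLK3, FOLH1, HOXB13 and STEAP1 had no site, and STEAP1 alone of these 5 had Pbx4 peaks.

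The receptor tyrosine kinase genes had 4.72 sites per 100 kb, with a site in 21 of 25. ALK had 54 sites, ERBB4 39, ROR1 34 and IGF1R 24. EGFR and MET, both active in many carcinomas, had 19 and 17, at 10.1 and 13.8 per 100 kb. NTRK3, FGFR3, FGFR4 and RET had no site, and NTRK3 is long, with 387 kb of eligible sequence. The synaptic and neuronal adhesion genes had the lowest density of the lists, 1.20 per 100 kb over 34.2 Mb. A site lay in 20 of these 24 genes, which all have at least 100 kb of eligible sequence. Of all genes with that much, 3242 of 3478 had a site. DLG2 had 63 sites, LRP1B 61, MAGI2 43 and CNTNAP2 39. CNTN4, CNTNAP5, CSMD1 and GRM7 had no Pbx4 peak of any kind.

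**Figure D5:**
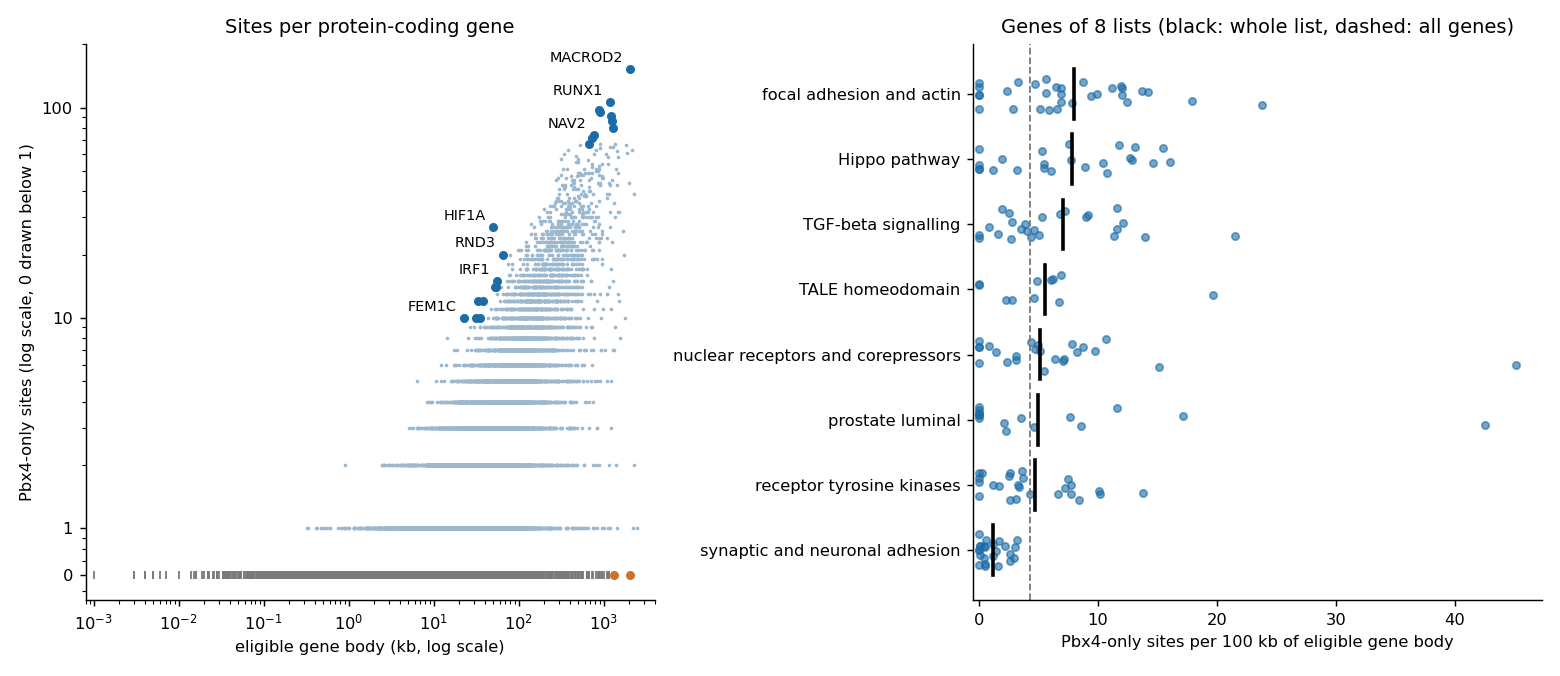
Left, each point is a protein-coding gene, with its eligible length (kb, log scale) against its number of Pbx4-only sites (log scale, genes without a site drawn at 0), in dark blue the 10 genes with most sites and the 10 densest, in orange CSMD1 and LRRC4C. Right, points give the density of each gene of 8 lists in sites per 100 kb, black bars the pooled density, from 7.97 for focal adhesion and actin to 1.20 for synaptic genes, and the dashed line that of all genes, 4.28.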

How the data were processed

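ChIP-Seq peak lists of 4 libraries of PC-3 cells were analysed. Per the study's methods, reads were mapped to hg19 with BWA-MEM, those with MAPQ of at least 10 were kept, duplicates were removed with SAMtools and peaks were called with MACS2 at q ≤ 0.05, 1 list per library. The MACS2 version and the control of each call are not given in the sources used here. The deposited lists give each peak's interval and summit and, as made by the authors, fold enrichment (a ratio over the local background), the −log10 of p and of q, and a score. The score and p-values were not used in results. The methods give an average depth only, so no precision per library can be given.

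Genes, exons and TSSs came from GENCODE 44 lifted to GRCh37, and sequence from GRCh37. Groups were taken from the sample titles. Eligible sequence is gene sequence over 1 kb from a protein-coding TSS. Words were sought within 50 bp of summits and compared by exact McNemar tests (flank) or Fisher's exact tests (other classes), with Benjamini-Hochberg adjustment at 0.05. Named were the 10 intronic and 5 exonic sites of highest fold, the intronic site of lowest q with each word called, the 10 genes with most sites, the 10 densest with at least 10 sites, the 5 longest without a site, up to 4 genes with most sites and those without a site in each list (a few of these genes are not reported here), and the 15 8-letter words of lowest p. Other genes, words and stretches were named after their values had been seen. The members, words and lists were chosen with earlier results of these data known. The listed symbol ACPP, an older name of ACP3, did not match. The tests were tested on simulated data. The simulated windows were random sequence of 1 base composition, without repeats or clustered sites, so they do not check the calls against real flanks. Python 3.11.15, numpy 2.4.6, pandas 2.3.3, scipy 1.17.1, pysam 0.24.0 and matplotlib 3.10.9 were used. As alternatives, stricter limits on q and fold and other rules for overlap, TSS distance, width and annotation were tried. So were leaving out each HoxC5 list, other word windows and flanks, and 1 site per gene, that of lowest q.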

Additional observations from a re-analysis of the deposited data

How the results depend on the processing

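No paired analysis was possible because Pbx4 has 1 ChIP library and the replicate numbers of the endogenous HoxC5 libraries pair them only with inputs, which were not used here. Leaving out an endogenous HoxC5 replicate gave 53111 and 53023 members, against 53022, as these lists are short beside that of overexpressed HoxC5. Over all alternatives the members numbered 35590 (fold of at least 5) to 71184 (endogenous HoxC5 lists alone), and genes with a site 8457 to 11366. The exonic share was 4.92% at over 5 kb from a TSS, 4.93% away from TSSs of any transcript, 5.63% with basic transcripts, 8.17% with any base in an exon and, as an alternative chosen after seeing the data, 7.18% with exons of any transcript of the genes. The first-intron difference was −0.797 points with HoxC5 within 1 kb counted as shared and 0.753 points at over 5 kb from a TSS. The difference at non-coding TSSs was −0.890 points (no longer called) with the endogenous lists alone. The words that differed from HoxC5-overlapping sites numbered 14, but 7 with the endogenous lists alone, where 716 sites overlapped HoxC5 and CAGGTG turned to −6.26 points, 6 with 1 site per gene, and 7, 6, 7, 8 and 4 in the quintiles of fold, which were chosen after seeing the data. Between intronic and intergenic sites 2 words were called with the endogenous lists alone and 2 with 100 bp on either side. With 1 site per gene 4 were called, but there only the intronic sites were cut to that of lowest q in each gene. All intergenic sites stayed, and the AP-1 word was more frequent at stronger sites, so these 4 calls do not compare like with like. Between exonic and intronic sites 0 words were called with 25 bp or 100 bp on either side. With 1 site per gene, 3892 8-letter words were called, against 10593. The cause of these changes was not tested. The quintiles of fold and 1 site per gene leave fewer sites, and 1 site per gene also keeps the site of lowest q. The counts of fixed words called against the flank stayed within 1.5 times in every alternative run, though single words lost their call. Depth limits which HoxC5 overlaps could be seen.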
